A study of Mus musculus with 20 samples.

Results

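The genes described here are the 172 protein-coding genes of the mouse autosomes whose locus spans 500 kb or more, and their transcript levels in the somatodendritic and axonal compartment of Control and Tdp-43 knockdown motoneurons. The genes were chosen from the gene type and the locus coordinates (end minus start, GRCm38) deposited with the FPKM values, and the rule uses no expression value. Of 39174 genes in the files, 22736 are protein-coding and 199 of these span 500 kb or more. Of those, 12 genes on the X chromosome and 15 members of ion channel, glutamate and GABA receptor, ephrin receptor, Robo, semaphorin, plexin, synaptotagmin and Rims families were left out. FPKM, the fragments mapped to a transcript per kilobase and per unit of library size, corrects for transcript length and depth.

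The RNA-seq libraries came from primary motoneurons of CD-1 mouse embryos, enriched from spinal cord by p75 panning and grown in microfluidic chambers that separate axons from cell bodies and dendrites. Control cultures received an empty lentiviral vector, and Tdp-43 knockdown cultures received a lentivirus expressing a single shRNA against Tdp-43, so that all cultures carried virus. There were 4 somatodendritic and 4 axonal Control libraries, and 6 somatodendritic and 6 axonal knockdown libraries, each amplified from small amounts of total RNA. The sample labels do not say whether libraries of a group came from separate cultures, so that p-values measure the spread between these libraries, which may be technical.

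Tdp-43 is a nuclear RNA-binding protein that prefers UG-rich stretches and binds widely within introns. In the nervous system it is known to sustain the level of transcripts with very long introns, many of which encode synaptic and adhesion proteins, and to keep cryptic exons out of mRNA. Many genes of this length are expressed in neurons, and most of their sequence lies in a few large introns.

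The 172 genes had a median span of 733 kb, and 43 of them reached 1000 kb. In the GENCODE M21 annotation of GRCm38 their median exonic length was 10248 bases, against 3450 in the other protein-coding genes, and the median number of merged exons was 24 against 7. Their longest intronic gap had a median of 201 kb, against 5.21 kb in the other coding genes, and introns made up a median of 98.8% of the locus, against 79.0%. The longest of these loci belonged to Fgfr2, a receptor of fibroblast growth factors, at 2961 kb. RefSeq (GRCm38.p6) listed 161 of the 172 genes and gave 157 of them 500 kb or more. It gave shorter loci to Fgfr2 (104 kb), Arfip1 (86.7 kb), Atp8a2 (439 kb) and Zmat4 (416 kb), so that the length of these 4 rests on the annotation the authors used. Mdga2 and MDGA2 are separate entries of the same stretch of chromosome 12, and their FPKM values are uncertain because the same reads can belong to either. Just inside the length limit, Edil3 (502 kb) had a mean of 12.3 FPKM in somatodendritic Control and 13.9 FPKM in knockdown, and Dock1 (503 kb) had 0.776 and 0.571 FPKM. Just outside it, Ank3 (494 kb) had 84.6 and 142 FPKM and Dnm3 (496 kb) had 35.6 and 87.6 FPKM.

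The transcripts were searched for TG repeats, the DNA form of the UG repeats that Tdp-43 prefers. The letters searched were TGTGTGTGTGTG, 6 or more TG in a row, on the transcribed strand of the longest protein-coding GENCODE M21 transcript of each gene. Such a run was present in 24 of 171 long genes with a transcript (14%) and in 1334 of 20921 other coding genes (6.38%). In 22 of the 24 genes it lay in the 3′ UTR. Among transcripts of 8000 bases or more the shares were 14 of 49 (28.6%) and 199 of 920 (21.6%), and a match is a description of the sequence, not a binding site. Introns were not searched, because no genome sequence was used here. The runs of 4 genes of different function are shown with their flanks, TG repeats in capitals: Auts2, the gene that rose in knockdown motoneurons, at chr5:131438012-131438041 on the minus strand (exon 15 of 15), Sorcs3 at chr19:48805130-48805159 on the plus strand, Smyd3 at chr1:178956984-178957013 on the minus strand, and Dpp10 at chr1:123329449-123329478 on the minus strand, all in the 3′ UTR on GRCm38. Smyd3 has another run of 15 TG repeats in the same exon, at chr1:178952523-178952552, and its shorter run is shown for its flanks.
Auts2: gcactTGTGTGTGTGTGTGTGTGTGttgta
Sorcs3: atatatataTGTGTGTGTGTGagaagaaag
Smyd3: agtttcctcTGTGTGTGTGTGtatatagaa
Dpp10: ggagTGTGTGTGTGTGTGTGTGTGTGagag

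Depth limited what could be seen in these libraries, and the effect of cell type purity on the long genes was not tested. Relative depth, taken from the intervals deposited with the FPKM values, ran from 1 down to 0.103 in axonal knockdown replicate 5, and 5 knockdown libraries were under 0.5. Read as counting error, the intervals corresponded to a median of 0.0190 to 5.23 implied fragments per long gene and library. These are not counts of reads, and Fgfr2 was above 0 FPKM with 0.34 implied fragments in somatodendritic Control replicate 1. The targeted gene, Tardbp, had 30.8, 19.0, 29.6 and 29.9 FPKM in somatodendritic Control and at most 8.54 FPKM in knockdown (exact permutation test, two-sided p = 0.00476). In axons it had 32.4, 20.2, 32.3 and 13.4 FPKM in Control and 1.21 to 33.2 FPKM in knockdown (exact permutation test, two-sided p = 0.138). The library labelled axonal knockdown replicate 1 had the 33.2 FPKM and was not below Control, so the counts and most of the named genes of the comparisons that use it are also given without it. Of 7 motoneuron markers in the files, Chat, Isl2 and Mnx1 were listed at 0 in all 20 libraries, Isl1, Lhx3, Prph and Slc5a7 were above 0 in some, and their summed FPKM was 1.33 to 8.03 in somatodendritic and 0 to 8.90 in axonal libraries. The summed FPKM of 6 markers of radial glia and astrocytes was 190 to 339 in somatodendritic and 23.8 to 540 in axonal libraries.

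The first comparison asked how long-gene transcripts differed between Control and Tdp-43 knockdown within the somatodendritic compartment. Auts2 rose and no long gene fell by the limma test, so 1 of 151 genes tested was higher and 0 were lower at a Benjamini-Hochberg adjusted p under 0.05. Across all 13762 genes tested, 0.218% were higher and 0.756% lower. At an unadjusted p under 0.05, 6 long genes were higher and 5 lower, where 4.59% and 9.22% of all genes were. With no scaling between libraries these counts were 18 and 2, against 9.27% and 5.44% of all genes in that fit. Leaving out 1 library at a time gave 4 (without Control replicate 4) to 11 (without knockdown replicate 5) higher and 2 (without Control replicate 1) to 7 (without knockdown replicate 1, 2 or 5) lower. Scaled values of 3 long genes were higher in every knockdown library than in any Control library, and 2 were lower, against 1.9% and 3.6% of all genes. The median log2 difference of the long genes was -0.02, against -0.11 in the other coding genes and -0.13 in all genes, and 73 of 151 were above 0. Without the libraries under 0.5 in depth, all of them knockdown, the medians were 0.0042 in the long and -0.0078 in the other coding genes. With the replicate number as a block they were -0.015 and -0.024. Log2 differences are of scaled FPKM + 1, which understates the change of low genes. In bulk RNA, fewer cells of a type and less RNA per cell cannot be told apart.

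Auts2 (chr5:131437333-132543344, minus strand), a nuclear protein that acts with Polycomb proteins in gene activation, had 32.1, 36.7, 40.9 and 37.9 FPKM in the 4 somatodendritic Control libraries. The 6 knockdown libraries had 80.7 to 146 FPKM with a median of 111. All knockdown libraries lay above all Control libraries, and the lowest knockdown value was 80.7 FPKM against a highest Control value of 40.9 FPKM. The mean was 36.9 ± 3.65 FPKM in Control (SD, n = 4) and 114 ± 24.2 FPKM in knockdown (SD, n = 6), a 3.09-fold difference as deposited (exact permutation test, two-sided p = 0.00476, the smallest that 210 splits allow). Adjusted over the 12 exact tests of Auts2, Pde4d and Nrxn3, that p was 0.0571. After scaling, the log2 difference was 1.37 ± 0.174 (SE, limma adjusted p = 0.00174). It passed in all 10 fits that left out 1 library, but not with the replicate number as a block (adjusted p = 0.0802) nor with all 20 libraries in 1 fit (adjusted p = 0.199).

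**Figure D1:**
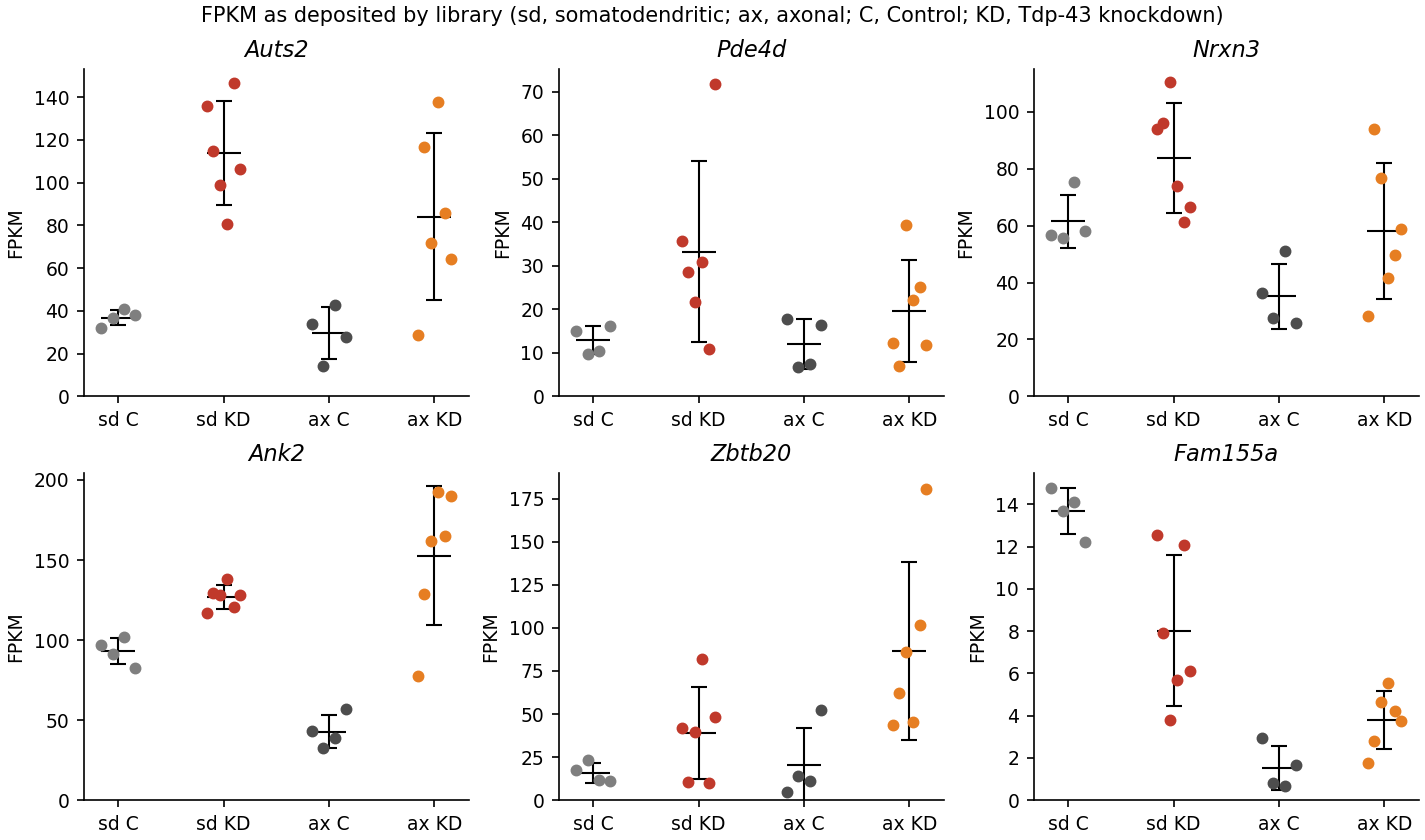
FPKM as deposited (vertical axis) of Auts2, Pde4d, Nrxn3, Ank2, Zbtb20 and Fam155a in each library of the 4 groups, points for libraries, with the mean and SD. Auts2 lies at 80.7 to 146 FPKM in somatodendritic knockdown and at 32.1 to 40.9 FPKM in somatodendritic Control, and the axonal knockdown libraries are more spread.

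Pde4d and Nrxn3, chosen with Auts2 as examples of this length class, did not pass the adjusted test. Pde4d (chr13:108449948-109953461, plus strand), a phosphodiesterase that degrades cyclic AMP, had 15.1, 9.82, 10.5 and 16.2 FPKM in somatodendritic Control and 10.9 to 71.9 FPKM (median 29.8) in knockdown. The groups overlapped through 1 knockdown library, and the log2 difference was 0.92 ± 0.418 (SE, limma adjusted p = 0.350). Nrxn3 (chr12:88722876-90334935, plus strand), a presynaptic neurexin that binds neuroligins, had 56.8, 55.7, 75.2 and 58.2 FPKM in Control and 61.3 to 111 FPKM (median 83.8) in knockdown. These groups overlapped too, and the log2 difference was 0.21 ± 0.194 (SE, limma adjusted p = 0.694).

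Among genes of axon guidance and secreted cues, 7 of 11 tested were above 0 and their median log2 difference was 0.31. Dcc, the netrin receptor, had 12.3, 12.2, 9.23 and 9.81 FPKM in Control and 16.1 to 34.3 FPKM (median 22.7) in knockdown. The groups did not overlap, but the log2 difference of 0.78 ± 0.248 did not pass adjustment (limma adjusted p = 0.162). The 11 genes of transcription and chromatin had a median of 0.23 with 8 above 0, and Auts2 was the 1 that passed. At an unadjusted p under 0.05, 1 of 2 tested genes of cyclic nucleotide signalling was higher, where 4.59% of all genes were, and this was Pde4d, one of the genes chosen as an example. The 3 RNA-binding genes Rbfox1, Celf2 and Rbms3, regulators of splicing and mRNA, had a median of 0.07.

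The 35 genes of cell and synaptic adhesion tested had a median of -0.19, with 14 above 0 and 21 below. Dscam, an adhesion molecule of dendritic self-avoidance, had 24.5, 19.4, 21.3 and 18.6 FPKM in Control and 27.2 to 58.1 FPKM (median 30.9) in knockdown. Its deposited values did not overlap, but its scaled values did, and the log2 difference was 0.52 (limma adjusted p = 0.350). Lrrtm4, a postsynaptic leucine-rich repeat protein, had 11.7, 10.5, 11.7 and 14.5 FPKM in Control and 0.00116 to 13.3 FPKM (median 6.16) in knockdown. Its log2 difference was -1.44 with overlapping groups (limma adjusted p = 0.337).

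Of 18 tested scaffold and cytoskeleton genes, 9 were above 0. Dlg2, the postsynaptic scaffold PSD-93, had 22.3, 27.4, 29.0 and 29.4 FPKM in Control and 33.3 to 74.7 FPKM (median 52.1) in knockdown, with a log2 difference of 0.63 (limma adjusted p = 0.249). Dlgap1, which binds PSD-95 family scaffolds, had 15.9, 24.7, 27.0 and 22.1 FPKM in Control and 30.4 to 41.9 FPKM (median 36.9) in knockdown, with a log2 difference of 0.48 (limma adjusted p = 0.284). For both genes the deposited values of the groups were apart and the scaled values overlapped. Magi2, another synaptic scaffold, had 15.3, 15, 20.0 and 20.0 FPKM in Control and 24.5 to 28.7 FPKM in knockdown, and its groups were apart on either scale. Arhgap26, a GTPase-activating protein, had 15.2, 15.8, 12.2 and 14.3 FPKM in Control and 4.29 to 13.7 FPKM (median 8.45) in knockdown. After scaling all knockdown values were below those of Control, with a log2 difference of -0.91 (limma adjusted p = 0.236).

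Fam155a, an auxiliary subunit of the sodium leak channel, had 14.8, 13.7, 14.1 and 12.2 FPKM in Control and 3.78 to 12.6 FPKM (median 7.01) in knockdown. Its scaled values were lower in every knockdown library than in any Control library, and its log2 difference was -0.99 ± 0.319 (SE, limma adjusted p = 0.170). Sorcs3, a sorting receptor of the Vps10 family whose repeat is shown above, had 6.59, 4.02, 6.16 and 5.85 FPKM in Control and 1.06 to 5.74 FPKM in knockdown, with a log2 difference of -0.93 (limma adjusted p = 0.321). The 8 genes of vesicle release and trafficking had a median of 0.04, the 8 receptors and signalling genes -0.12, and the 13 tested enzymes and fragile-site genes 0.14.

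Of the 7 long-intron transcripts commonly named as sustained by Tdp-43 in mouse brain, 6 were in the set, and their median log2 difference was 0.02 with 3 above 0. Fgf14, an intracellular partner of voltage-gated sodium channels, had 5.88, 7.13, 5.24 and 3.55 FPKM in Control and 0 to 6.26 FPKM (median 2.42) in knockdown, with a log2 difference of -1.15 (limma adjusted p = 0.337). Its groups overlapped. The postsynaptic neuroligin Nlgn1 had means of 12.2 FPKM in Control and 13.7 FPKM in knockdown. Smyd3, a lysine methyltransferase, had 4.73 and 6.93 FPKM. Park2, the ubiquitin ligase parkin, had 0, 3.08, 1.89 and 0 FPKM in the Control libraries and was listed at 0 in 4 of the 6 knockdown libraries, so that a change was not detectable at this depth.

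The second comparison took the axonal compartment. No long gene of 150 passed at an adjusted p under 0.05 by limma, higher or lower, where 0.0143% and 0.387% of the 13958 genes tested did. At an unadjusted p under 0.05, 6 were higher and 1 lower, against 2.14% and 6.46% of all genes. Without scaling the counts were 23 and 0, against 7.16% and 2.67% of all genes in that fit, and Ank2 passed adjustment. On scaled values, no long gene was higher in every knockdown library than in any Control library and 1 was lower, against 0.451% and 2.02% of all genes. The median log2 difference was 0.21, against -0.16 in the other coding genes and -0.17 in all genes, and 91 of 150 long genes were above 0. When the knockdown libraries under 0.5 in depth were dropped, the medians were 0.26 and 0.08. Without the library labelled knockdown replicate 1 there were again 0 calls, 12 higher and 3 lower at an unadjusted p under 0.05 (2.26% and 7.17% of all genes), and the median was 0.21, against -0.19 in the other coding genes. Leaving out each library in turn gave 3 (without Control replicate 1) to 12 higher and 0 (without Control replicate 3) to 6 (without knockdown replicate 4) lower. The summed FPKM of the nuclear RNAs Malat1, Neat1 and Meg3 was 428 to 699 in the Control and 1133 to 2227 in the knockdown libraries of this compartment. That of 6 spinal interneuron markers was 27.3 to 53.8 and 5.35 to 169 (medians 33.5 and 78.5). Median sums were 2.84 and 11.8 for microglia and 108 and 180 for radial glia and astrocytes. In the other direction they were 121 and 88.3 for dividing cells, 1.38 and 1.12 for endothelium and 0.739 and 0 for motoneurons. The part of these lists in the values of the long genes was not tested.

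Ank2, the ankyrin that links membrane proteins to the spectrin cytoskeleton, had 43, 32.8, 38.9 and 56.8 FPKM in axonal Control and 77.7 to 193 FPKM (median 164) in knockdown. The deposited values did not overlap, whereas the scaled ones did, and the log2 difference was 1.26 ± 0.369 (SE, limma adjusted p = 0.260). In somata the deposited values of Ank2 were 82.8 to 102 FPKM in Control and 117 to 138 FPKM in knockdown. Auts2 had 33.9, 14.2, 42.9 and 27.8 FPKM in axonal Control and 28.6 to 138 FPKM (median 78.7) in knockdown. The groups overlapped through the library labelled knockdown replicate 1, which had the 28.6 FPKM. The log2 difference was 0.91 ± 0.497 (SE, limma adjusted p = 0.65), and without that library it was 1.23 (limma adjusted p = 0.347). When the libraries under 0.5 in depth were dropped it was 0.28 (limma adjusted p = 0.932). Pde4d had 17.7, 6.82, 7.40 and 16.4 FPKM in Control and 7.08 to 39.3 FPKM in knockdown, and Nrxn3 had 36.2, 27.6, 51.1 and 25.8 FPKM in Control and 28.3 to 94.0 FPKM in knockdown. Both overlapped, with log2 differences of 0.09 and 0.15 whose sign depended on the libraries used.

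Zbtb20, a zinc finger repressor, had 4.58, 14.1, 11.3 and 52.4 FPKM in axonal Control and 43.4 to 181 FPKM (median 74.2) in knockdown. Its log2 difference was 1.83 (limma adjusted p = 0.306), and Control replicate 4 reached into the knockdown range. Negr1, an adhesion molecule of the IgLON family, had 1.85, 2.74, 5.22 and 33.8 FPKM in Control and 12.1 to 148 FPKM (median 23.3) in knockdown. Its log2 difference was 1.90 (limma adjusted p = 0.517), and the high Control value was again that of replicate 4. The receptor tyrosine phosphatase Ptprm had 1.24, 5.89, 0 and 3.29 FPKM in Control and 3.93 to 14.3 FPKM (median 10.8) in knockdown, with a log2 difference of 1.54 (limma adjusted p = 0.49). Its relative Ptprt had 4.23, 8.32, 4.49 and 5.4 FPKM in Control and 7.71 to 43 FPKM (median 17.6) in knockdown, with a log2 difference of 1.17 (limma adjusted p = 0.529). Both phosphatases mediate adhesion between like molecules, and the groups overlapped for each. The uncharacterised 5730522E02Rik was listed at 0 in 3 of 4 Control libraries and had 0 to 27.6 FPKM (median 11.1) in knockdown, with a log2 difference of 2.37 (limma adjusted p = 0.463). Its deposited intervals implied only 0 to 1.92 fragments in the axonal knockdown libraries, so its level is uncertain. Without the library labelled knockdown replicate 1 the log2 differences were 1.49 for Ank2 (limma adjusted p = 0.0775), 2.03 for Zbtb20, 2.21 for Negr1, 1.59 for Ptprm, 1.17 for Ptprt and 2.90 for 5730522E02Rik, with limma adjusted p from 0.223 to 0.527 for the other 5.

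Lrrtm4 was the 1 long gene below an unadjusted p of 0.05 in both compartments. In axons it had 3.07, 2.98, 6.08 and 5.46 FPKM in Control and 0 to 3.37 FPKM (median 1.21) in knockdown, and the scaled groups did not overlap. By the deposited intervals, these values rested on 0.2 to 0.79 implied fragments per Control library and at most 0.09 per knockdown library. The axonal level of Lrrtm4 is therefore uncertain. The axonal log2 difference was -1.53 ± 0.602 (SE, limma adjusted p = 0.471), and -1.49 without the library labelled knockdown replicate 1 (limma adjusted p = 0.497). By group, the 36 adhesion genes had an axonal median of 0.36 with 22 above 0, the 19 scaffold genes 0.32 with 14 above 0, and the 11 transcription genes 0.33 with 9 above 0. The 11 genes of axon guidance and secreted cues had -0.07 and the 5 tested long-intron Tdp-43 targets -0.43. None of these lists held a gene that passed adjustment.

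Of 144 long genes tested in both compartments, 51 had a difference above 0 in both. Whether the knockdown difference itself differed between axons and somata was tested as an interaction over all 20 libraries. No long gene of 152 passed at an adjusted p under 0.05 by limma, where 0% of 14062 genes were higher in axons and 0.0711% lower. At an unadjusted p under 0.05, 6 were higher and 1 lower, against 2.75% and 2.86% of all genes. These were, with the axonal minus the somatodendritic log2 difference, Fam155a (1.62), Arhgap26 (1.97), Ank2 (1.01), Ptprt (1.47), A830018L16Rik (1.72), Ptprm (1.41) and, in the other direction, Schip1 (-1.27). Their limma adjusted p ranged from 0.814 to 0.889. With 1 library left out at a time, 4 (without somatodendritic Control replicate 2) to 10 (without axonal Control replicate 4) were higher and 0 to 5 (without axonal knockdown replicate 4) lower. Without the library labelled axonal knockdown replicate 1 there were again 0 calls, 9 were higher and 1 lower at an unadjusted p under 0.05 (2.92% and 3.87% of all genes), and the adjusted p of these 7 genes by limma ranged from 0.275 to 0.754. For Arhgap26 the axonal Control libraries had 5.98, 13.6, 6.01 and 4.39 FPKM and the axonal knockdown libraries 5.20 to 44.9 FPKM (median 34.3), and its somatodendritic libraries had 12.2 to 15.8 FPKM in Control and 4.29 to 13.7 FPKM in knockdown. Both pairs of groups overlapped as deposited, and neither compartment's difference nor the interaction passed adjustment. For Auts2 the interaction was -0.48 (limma adjusted p = 0.962), which does not separate the compartments.

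**Figure D2:**
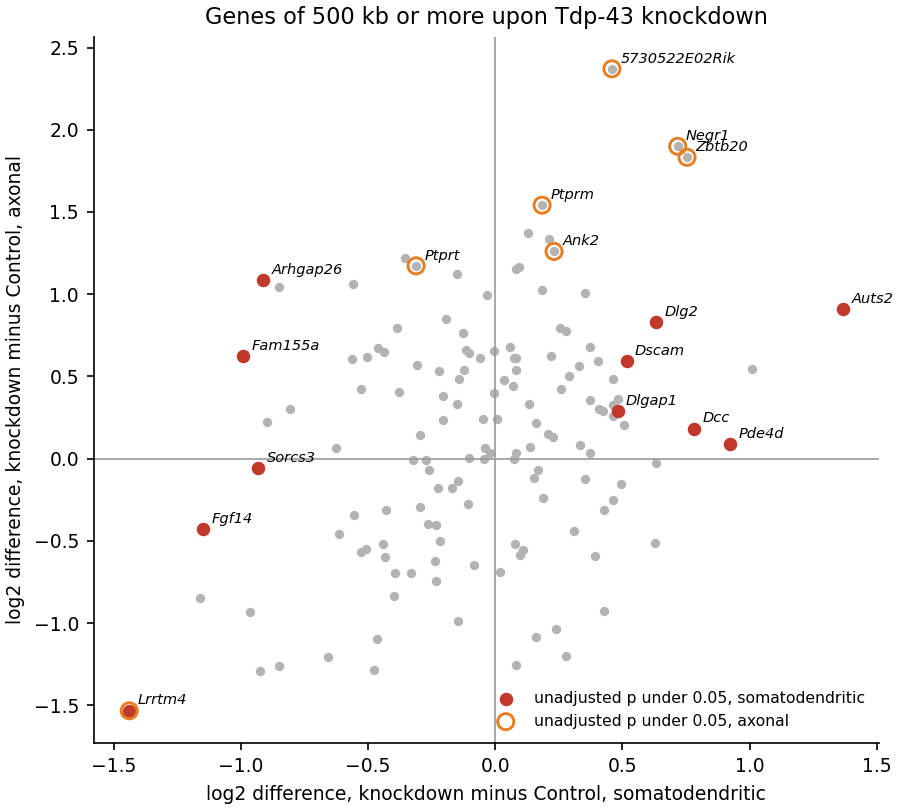
Log2 difference of scaled FPKM + 1, knockdown minus Control, of each long gene tested in both compartments, somatodendritic on the horizontal and axonal on the vertical axis. Auts2 lies at 1.37 and 0.91, Lrrtm4 at -1.44 and -1.53, and 51 of 144 genes lie above 0 on both axes.

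Summed over all 172 genes, the long genes made up 0.840% to 0.924% of protein-coding FPKM in somatodendritic Control (0.901% ± 0.0406, SD, n = 4). In somatodendritic knockdown they made up 0.983% to 1.08% (1.02% ± 0.0359, SD, n = 6), so the groups did not overlap. Without Auts2 and Ank2 the ranges were 0.793% to 0.871% and 0.898% to 0.994%, again apart. A measure by gene did overlap, namely each gene's deviation from its mean over these libraries (scaled, log2). Its median in the long genes minus that in the other coding genes was -0.195 to -0.0208 in Control and -0.188 to 0.147 in knockdown. In axons the share was 0.545% to 0.668% in Control (0.631% ± 0.0584, SD, n = 4) and 0.585% to 1.07% in knockdown (0.786% ± 0.204, SD, n = 6), and these overlapped. The lowest axonal knockdown shares were in the library labelled replicate 1 and in replicate 5, the shallowest library.

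**Figure D3:**
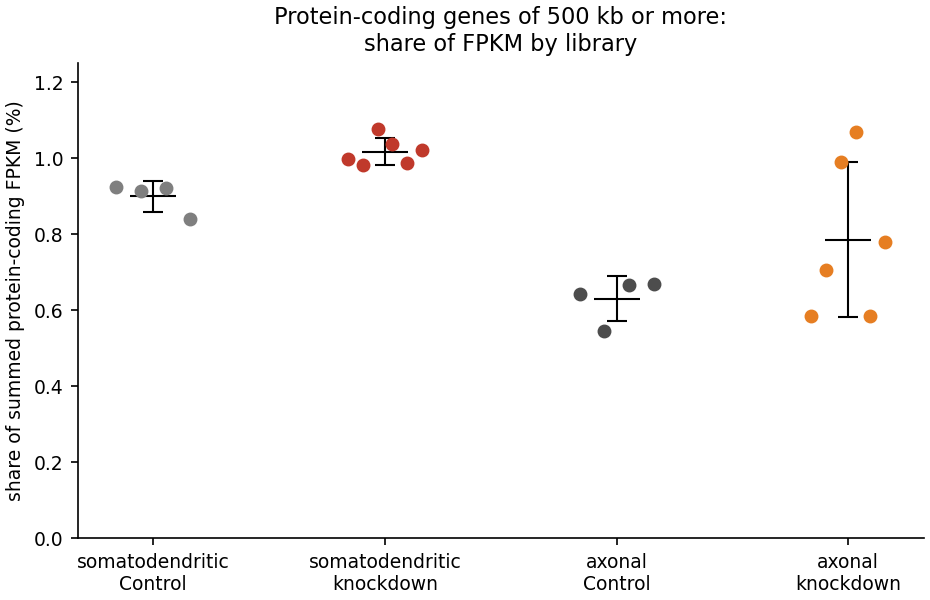
Share of summed protein-coding FPKM (percent, vertical axis) taken by the 172 long genes in each library, points for libraries, with the mean and SD of each group. Somatodendritic knockdown libraries lie at 0.983% or more and somatodendritic Control libraries at 0.924% or less, and axonal knockdown libraries spread from 0.585% to 1.07%.

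The length classes of all protein-coding genes place these values. Relative to the median of all genes, the somatodendritic knockdown difference was -0.10 for genes under 10 kb and 0.03 for 10 to 50 kb. It was 0.10 for 50 to 100 kb, 0.12 for 100 to 250 kb and 0.12 for 250 to 500 kb. For 500 to 1000 kb it was 0.10, and for 1000 kb or more 0.17. In axons the medians of these classes, in the same order, were -0.15, -0.02, 0.15, 0.15, 0.23, 0.39 and 0.46. Long genes also have longer exonic sequence. The medians that follow are log2 differences as such, not set relative to all genes, whose median was -0.13 in somata and -0.17 in axons. Among genes with 8000 or more exonic bases the somatodendritic median was 0.07 in the long genes and 0.03 in the other coding genes. At 4000 to 8000 exonic bases it was -0.15 and -0.08. In axons these medians were 0.22 against 0.04, and 0.20 against -0.14. The values also differed between level classes. At a mean of 20 FPKM or more, 43 long genes had a somatodendritic median of 0.16, against 0.02 in the other coding genes, whereas at 5 to 20 FPKM 68 long genes had -0.11 against -0.11, and at 1 to 5 FPKM 40 long genes had -0.21 against -0.24. In axons the medians of the long genes in these classes were 0.33, 0.09 and 0.22, against -0.05, -0.21 and -0.17 in the other coding genes. Long genes with a TG run in the transcript had a somatodendritic median of 0.11 (23 genes), against -0.04 without one (127 genes), and an axonal median of 0.02 against 0.24. In the other coding genes the medians with and without a run were 0.01 and -0.12 in somata and -0.06 and -0.17 in axons.

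**Figure D4:**
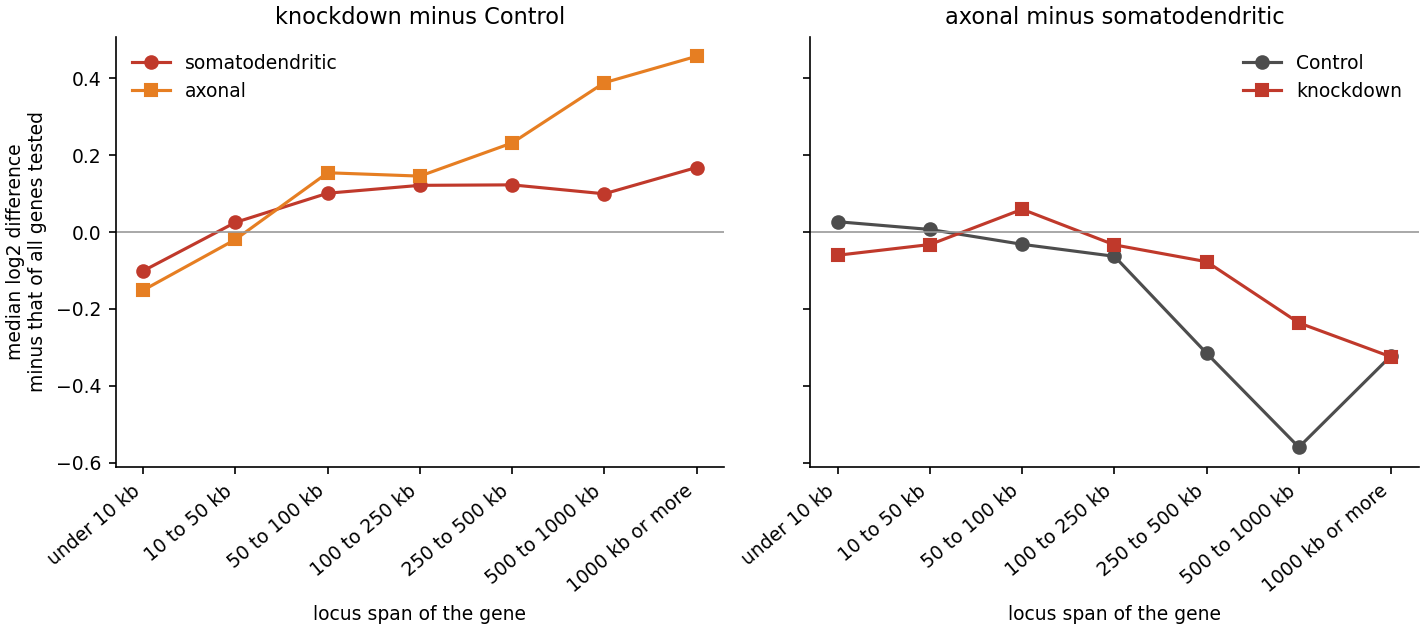
Median log2 difference of protein-coding genes by locus span, minus the median of all genes tested, for each comparison. In the axonal knockdown comparison the median is -0.15 under 10 kb and 0.46 at 1000 kb or more, and in Control axons against somata it is -0.56 at 500 to 1000 kb and -0.32 at 1000 kb or more.

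The third comparison set axons against somata within Control motoneurons. More long genes were lower in axons than higher: by limma, 3 of 146 were higher and 11 lower at an adjusted p under 0.05, where 3.93% and 2.97% of 13760 genes were. Without scaling these counts were 2 and 47, against 2.5% and 12.4% of all genes in that fit, and leaving out the scaling shifted the median of all genes by -0.42 here, by 0.17 in somatodendritic and by 0.40 in axonal knockdown. At an unadjusted p under 0.05, 10 were higher and 45 lower, against 11.1% and 11.8% of all genes. Leaving out 1 library at a time gave 6 (without somatodendritic replicate 2, 3 or 4) to 11 higher and 32 to 46 lower. Scaled values of axonal and somatodendritic libraries did not overlap for 8 higher and 31 lower long genes, against 7.65% and 8.54% of all genes. The median log2 difference, axonal minus somatodendritic, was -0.56, against -0.07 in the other coding genes, and it stayed at -0.47 against -0.05 among genes of 8000 or more exonic bases. The summed FPKM of the 3 nuclear RNAs was 729 to 1092 in somata and 428 to 699 in axons, and that of 6 spinal interneuron markers was 133 to 148 and 27.3 to 53.8. Markers of the oligodendrocyte lineage and Schwann cells summed to 44.1 to 81.2 in somata and 6.87 to 33.6 in axons, those of microglia to medians of 16.4 and 2.84 with no overlap, and those of radial glia and astrocytes to medians of 299 and 108. In the other direction, markers of fibroblasts and meninges had medians of 2.09 and 31.1 and those of dividing cells 57.4 and 121. The part of these lists in the differences of the long genes was not tested. The count of 14 calls ranged from 3 to 22 when 1 library was left out, lowest without somatodendritic replicate 1 or 3 and highest without axonal replicate 4, and was 4 with the replicate number as a block. Fam155a and Fgfr2 passed in all 8 fits that left out 1 library.

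Of the 11 genes that were lower in axons, 6 were cell and synaptic adhesion genes, of which 34 were tested and 29 were below 0 (median -0.68). Cntnap2, the neurexin-like Caspr2 that clusters potassium channels, had 43.9, 70.2, 76.4 and 51.6 FPKM in somata and 5.17, 10.6, 29.0 and 3.37 FPKM in axons. The groups did not overlap, and the log2 difference was -2.11 ± 0.533 (SE, limma adjusted p = 0.0395). Ptprt had 36.0, 19.6, 23.4 and 32.4 FPKM in somata against 4.23 to 8.32 FPKM in axons (log2 difference -1.65, limma adjusted p = 0.0123). Lrrc4c, the netrin-G ligand of postsynaptic membranes, had 10.3, 12.1, 14 and 11.7 FPKM in somata and 2.64, 3.22, 1.97 and 0.749 FPKM in axons (-1.69, adjusted p = 0.0285). All 3 were lower in every axonal library. The IgLON protein Ntm had 68.2, 62.1, 75.6 and 64.5 FPKM in somata and 6.73, 13.2, 31.3 and 22.7 FPKM in axons (-1.5, adjusted p = 0.0488). Pcdh15, a protocadherin (-1.64, adjusted p = 0.0349), and Cadm2, a synaptic cell adhesion molecule (-1.46, adjusted p = 0.0410), completed the group by the same limma test. For Pcdh15 the deposited intervals implied only 0.01 to 0.04 fragments in the axonal libraries, so its axonal level is uncertain.

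Fam155a had 2.93, 0.802, 0.653 and 1.66 FPKM in Control axons, against 12.2 to 14.8 FPKM in somata (log2 difference -2.23 ± 0.400, SE, limma adjusted p = 0.00922). Among scaffold genes, Elmo1, an activator of Rac with Dock proteins, had 26.1, 25.8, 32.4 and 30.2 FPKM in somata and 8.86, 5.58, 6.27 and 7.91 FPKM in axons (-1.38, adjusted p = 0.0129). Both transcripts were lower in every axonal library. Dlg2 had 9.29, 6.77, 9.06 and 5.83 FPKM in axons, against 22.3 to 29.4 FPKM in somata (-1.20, adjusted p = 0.0270). Car10, a carbonic anhydrase-related ligand of neurexins (-1.49, adjusted p = 0.0438), and A830018L16Rik (-1.77, adjusted p = 0.0449) were the other genes that fell. For A830018L16Rik the deposited intervals implied 0.21 to 1.78 fragments in somata and 0 in every axonal library. All 3 RNA-binding genes were below 0 (median -0.71), Rbfox1 with 62.0, 52.1, 49.6 and 52.1 FPKM in somata and 23.7, 12.9, 15.9 and 26.8 FPKM in axons (limma adjusted p = 0.0629).

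Fgfr2 was the strongest of the 3 genes that were higher in axons. It had 5.34, 1.87, 4.71 and 13.1 FPKM in somata and 26.7, 27.3, 15.3 and 19.2 FPKM in axons (log2 difference 2.33 ± 0.431, SE, limma adjusted p = 0.0107), and is 1 of the genes that RefSeq lists as shorter than 500 kb. The deposited intervals of Fgfr2 implied only 0.03 to 1.66 fragments in somata and 1.52 to 3.75 in axons, so its levels are uncertain. Lpp, a LIM protein of focal adhesions, had 0.721, 1.17, 0.654 and 1.36 FPKM in somata and 4.78, 2.78, 3.81 and 4.76 FPKM in axons (1.67, adjusted p = 0.0351). Schip1, a partner of ankyrins at the axon initial segment, had 27.4, 28.6, 31.1 and 33.4 FPKM in somata and 32.3, 63.9, 46.2 and 36.7 FPKM in axons (1.03, adjusted p = 0.0333). The scaled groups were apart for all 3, while the deposited values of Schip1 overlapped. The summed FPKM of 5 fibroblast markers was 1.43 to 11.9 in somata and 11.9 to 47.9 in axons, and that of 4 markers of dividing cells was 49.1 to 69.3 and 94.4 to 179, and the part of either in these 3 genes was not tested. Auts2 was at 32.1 to 40.9 FPKM in somata and 14.2 to 42.9 FPKM in axons, and its scaled log2 difference of 0.11 turned to -0.40 without scaling. Pde4d had 9.82 to 16.2 and 6.82 to 17.7 FPKM, and its sign turned likewise. Nrxn3 had 25.8 to 51.1 FPKM in axons, below its 55.7 to 75.2 FPKM in somata as deposited (0.572-fold, exact permutation test, two-sided p = 0.0286, the smallest that 70 splits allow, 0.133 over the 12 tests). After scaling its groups overlapped, with a log2 difference of -0.31 ± 0.267 (SE, limma adjusted p = 0.527).

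**Figure D5:**
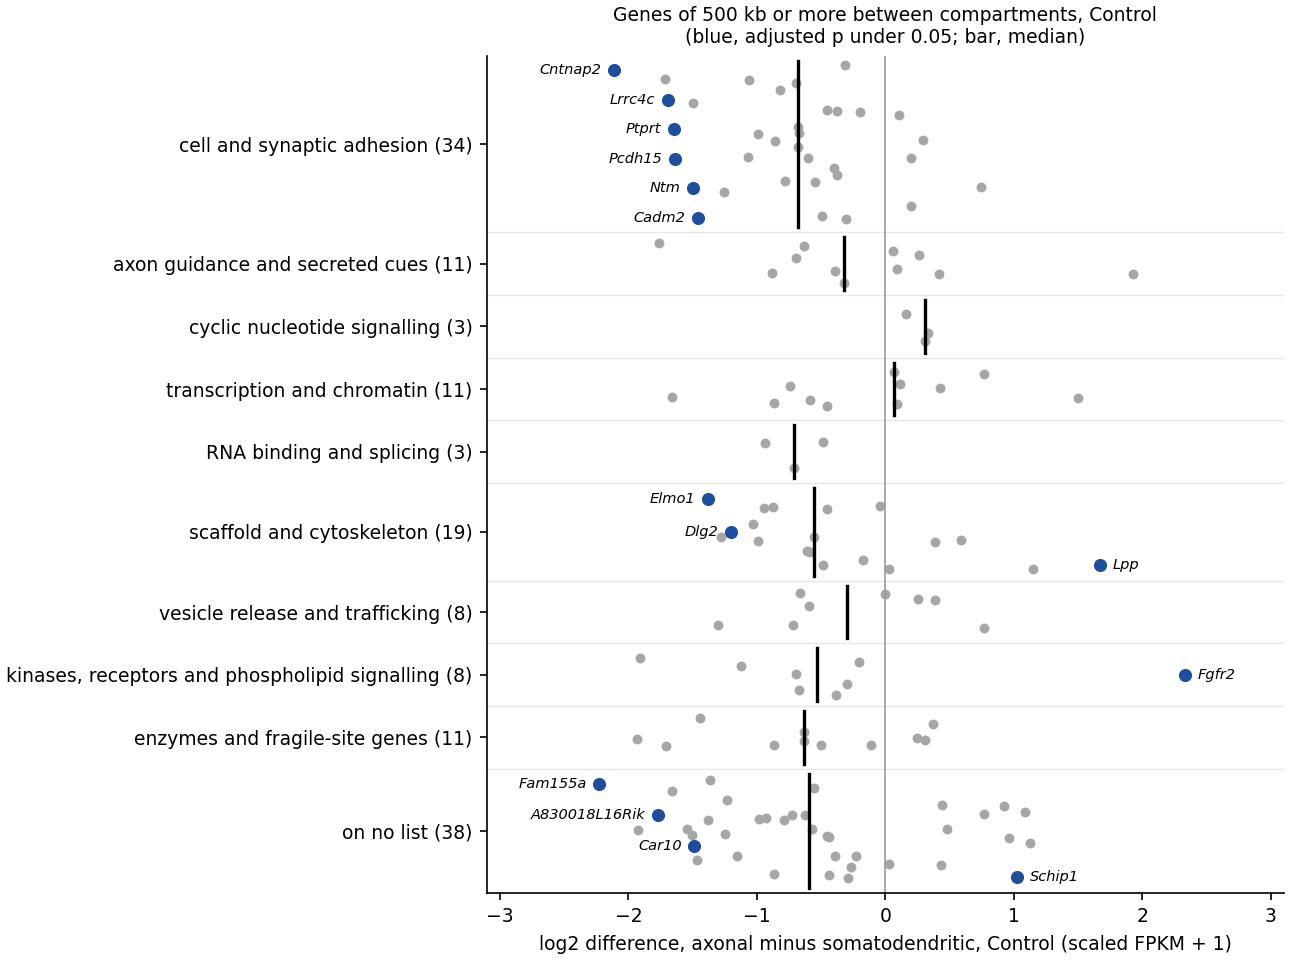
Log2 difference, axonal minus somatodendritic Control libraries (scaled FPKM + 1, horizontal axis), of the long genes by functional list, with blue points for adjusted p under 0.05 and a bar for the median. The 34 adhesion genes have a median of -0.68, and Fgfr2, Lpp and Schip1 are the genes called higher in axons.

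In Tdp-43 knockdown motoneurons the same comparison gave 0 calls of 153 by limma at an adjusted p under 0.05, where 0.856% of 14021 genes were higher and 0.421% lower. At an unadjusted p under 0.05, 7 long genes were higher in axons and 22 lower, against 7.86% and 8.73% of all genes. Without the library labelled axonal knockdown replicate 1 these counts were 11 and 20, against 6.8% and 8.63% of all genes, and with any 1 library left out they ranged from 6 to 11 and from 18 to 32. The median was -0.35, against -0.09 in the other coding genes. It was -0.25 against -0.15 without the library labelled axonal knockdown replicate 1, which moved the gap from -0.252 to -0.106. Between the same groups, somata first, the median summed FPKM was 866 and 1655 for the 3 nuclear RNAs, 139 and 78.5 for the spinal interneuron markers, 70.4 and 23.1 for those of the oligodendrocyte lineage and Schwann cells, and 3.98 and 40 for those of fibroblasts and meninges. The part of these lists in the differences was not tested. Car10 had 26.1 to 36.9 FPKM in somata (median 28) and 0 to 16.7 FPKM in axons (median 7.25), with a log2 difference of -2.26 (adjusted p = 0.0565). Macrod2, which removes ADP-ribose from proteins, had 2.32 to 7.86 FPKM in somata and was listed at 0 in 4 of 6 axonal libraries (-1.91, adjusted p = 0.0638). Lpp had 0 to 1.05 FPKM in somata and 1.99 to 18.1 FPKM in axons (1.99, adjusted p = 0.0862). Lpp was the 1 higher long gene, and Car10, Macrod2 and Dlgap1 the 3 lower ones, whose scaled values did not overlap between compartments. This was of 153 tested, against 1.1% and 1.37% of all genes. Without the same library the log2 differences were -2.15 for Macrod2 (limma adjusted p = 0.0611) and 1.89 for Lpp (limma adjusted p = 0.149). Without the library labelled axonal knockdown replicate 1, 1 gene passed (0.409% of all genes were higher), the contactin Cntn5, with 1.81 to 8.75 FPKM in somata and 2.70 to 30.1 FPKM in axons over all 6 libraries.

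Levels among the long genes spanned a wide range. Over the 20 libraries 152 of 172 had a mean of 1 FPKM or more, 74 were above 0 in all libraries and 6 were listed at 0 in all. The 151 genes tested in somata had a median of 10.2 FPKM, against 8.58 FPKM in the other coding genes tested. The highest mean was that of Ank2, at 93.3 and 127 FPKM in somatodendritic Control and knockdown and 42.9 and 153 FPKM in the axonal groups. The calcium-responsive transcription factor Camta1 had 56.9, 83.8, 21.4 and 44.0 FPKM in the same order, and Rbfox1 had 54.0, 86.8, 19.8 and 39.8 FPKM. The latrophilin Lphn3, an adhesion G protein-coupled receptor, had 46.6, 43.9, 52.2 and 48.8 FPKM in somatodendritic Control. In axonal Control 1 library had 114 FPKM of Lphn3 and the others 13.4, 14.5 and 17.7 FPKM, so its axonal mean rests on that library.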

How the data were processed

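The deposited FPKM values were computed by the authors for each library. The submitters' processing notes name Cufflinks 2.2.1, FastQC 0.10.1 and GRCm38, and the aligner is not given in the sources used here. FPKM carry no counts, so relative depth was taken from the interval deposited with each value, read as FPKM ± 2 SD of a count. Those intervals do not cover the spread between libraries, and many values above 0 FPKM implied only a fraction of a fragment. The implied fragments are therefore a guide to uncertainty, not counts of reads.

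Within each comparison, a scaling factor per library was the median ratio to the geometric mean library, taken over genes that reached 1 FPKM throughout. Genes whose mean reached 1 FPKM in the comparison were tested as log2(scaled FPKM + 1) with limma 3.58.1 in R 4.3.3 (trended eBayes, two-sided, no block), and p-values were adjusted by Benjamini-Hochberg over every gene tested. The interaction used all 20 libraries. Exact permutation tests of Auts2, Pde4d, Nrxn3 and Tardbp used FPKM as deposited. The fits were also run on simulated data with known changes, whose noise was normal with the spread of Control libraries. The simulation held no counting noise and no libraries as shallow as the shallowest here. It therefore cannot show how the fits perform at low depth. Python 3.11.15 was used for tables.

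The length rule uses no expression value, but that rule, the 9 functional lists and the named genes were chosen with earlier results of these data known. Named are Auts2, Pde4d and Nrxn3, long genes that passed adjustment or had the smallest unadjusted p under 0.05 (up to 10 each way for knockdown), the highest mean FPKM, long-intron Tdp-43 targets, list examples and the genes nearest 500 kb. Magi2, Lphn3, Rbfox1, Macrod2, Arfip1, Atp8a2, Zmat4 and Mdga2, and compartment genes past the 5 largest calls each way, were named where a count or doubt turned on them, after their values were seen. One such gene is left out of the text.

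Alternatives were unscaled FPKM, quantile normalization, a pseudocount of 0.1 or 5, filters of 0.1 and 5 FPKM, array weights, the replicate number as a block, depth of at least 0.5, spans of 400 and 750 kb, the left-out X-linked genes and families included, all 20 libraries together and each library left out. One, leaving out genes under 500 kb in RefSeq, was chosen after seeing the data.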

Additional observations from a re-analysis of the deposited data

Results flagged for a closer look

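Of 48 groups of libraries tested for a value far from the others, 4 held one, where chance gives about 1 in 20. The share of protein-coding FPKM taken by the long genes was 0.840% in somatodendritic Control replicate 4, below the other 3 Control libraries at 0.915% to 0.924%. Nrxn3 had 75.2 FPKM in somatodendritic Control replicate 3, above the other 3 at 55.7 to 58.2 FPKM. Negr1 had 33.8 FPKM in axonal Control replicate 4, above the other 3 at 1.85 to 5.22 FPKM. 5730522E02Rik had 2.02 FPKM in axonal Control replicate 3 and was listed at 0 in the other 3.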

How the results depend on the processing

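The median of the long genes minus that of the other coding genes kept its sign in every alternative run. For somatodendritic knockdown it was 0.00897 (with the replicate block) to 0.160, and 0.012 without libraries under 0.5 in depth. For axonal knockdown it was 0.174 (without libraries under 0.5 in depth) to 0.450. For Control axons against somata it was -0.570 to -0.285 (-0.29 with a pseudocount of 5). For knockdown axons against somata it was -0.361 to -0.106 (-0.106 without axonal knockdown replicate 1). Counts of long genes at an adjusted p under 0.05 were less stable. In somatodendritic knockdown the 1 call became 0 with the replicate block, 2 with a span of 400 kb and 0 with all 20 libraries together, and remained 1 when any library was left out. In axonal knockdown 0 became 1 without scaling and 1 with all 20 libraries. In Control axons against somata 14 became 49 without scaling, 9 with a filter of 0.1 FPKM, 4 with the replicate block, 27 and 8 with spans of 400 and 750 kb, 2 with all 20 libraries, and 3 to 22 with 1 library left out. In knockdown axons against somata 0 became 2 with quantile normalization, 1 with a pseudocount of 5, 1 with a filter of 5 FPKM, 3 with array weights, 1 with a span of 400 kb, 9 with all 20 libraries, and 0 to 2 with 1 library left out. Signs turned for Nrxn3 in axonal knockdown (-0.029 at a depth of at least 0.5), Auts2 in Control axons against somata (-0.40 without scaling, -0.012 with quantile normalization), Pde4d there (-0.17 without scaling) and the Nrxn3 interaction (0.24 without scaling), and the cause was not tested. With 1 library left out, the log2 difference was -0.048 to 0.37 for Nrxn3 and -0.14 to 0.30 for Pde4d in axonal knockdown, -0.12 to 0.44 for Auts2 in Control axons against somata, -0.52 to 0.00069 for Auts2 in knockdown axons against somata and -0.29 to 0.14 for the Nrxn3 interaction. Leaving out the scaling shifted the median of all genes by 0.17 in somatodendritic and 0.40 in axonal knockdown, by -0.42 and -0.18 in axons against somata of Control and knockdown, and by 0.26 in the interaction (log2). The labels do not say that replicate numbers pair the libraries. Over 18 pairs of same-numbered libraries the correlation of deviations was -0.053 to 0.077, and in 5 of these pairs the first library correlated best with its own number.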
